A study of Homo sapiens with 15 samples.

Results

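The comparison set 293T cells carrying a hairpin against SRSF1 and kept without serum for 12 h against wild-type 293T cells kept without serum for 12 h. Its members were the 6 libraries that the labels place in those groups, 3 of the starved knockdown and 3 of the starved wild type, of 15 samples in the series. Fed wild-type cells, at 0 h of starvation, gave 3 more libraries in the same table, and their values stand beside those of the other groups without a test against the knockdown. The 6 samples in which SRPK1 or UPF1 was knocked down were not used here. All cells were grown with 10% FBS, and 1.3 µg of Trizol RNA went into each mRNA library, built with a SMARTER kit. The labels name no control hairpin, so the delivery of a hairpin and the loss of SRSF1 cannot be told apart. The labels do not say that replicates were separate cultures, so p-values measure the spread between libraries, which may be technical. That spread was estimated over all 9 libraries of the 3 groups, the fed ones included. Values are normalized reads, the reads of a gene divided by a size factor of its library. A gene is called higher or lower in the knockdown where its limma adjusted p lies under 0.05. Log2 fold changes are knockdown over starved, on normalized reads plus 1, from 3 libraries per group. Their standard error, after ±, rests on the same shared spread.

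SRSF1 is an SR protein: it binds purine-rich RNA through its RNA recognition motifs and recruits the splicing machinery through a domain rich in arginine and serine. It also takes part in mRNA export, nonsense-mediated decay and translation, and its kinases of the SRPK and CLK families set where in the cell it works. The table holds a single value per gene, so the choice of exons, the step for which SRSF1 is best known, could not be read from it. Serum carries growth factors that keep the RAS, RAF, MEK and ERK cascade and the serum response factor active, and growing cells lose that input when serum is withdrawn. The title of the series names ribosomal stress, proliferation and the MAPK pathway. The lists of genes described here go beyond these themes and were chosen with earlier results of these data known.

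293T cells derive from human embryonic kidney and express the large T antigen of SV40, and their label calls them renal epithelial. Of 11 kidney markers, LHX1, EMX2 and LRP2 passed the filter on low values and were called higher in the knockdown, and the renal genes PAX8, CDH16 and UMOD were at 0 in both groups. The 11 markers summed to between 799 and 934 normalized reads in the knockdown libraries and between 398 and 465 in the starved libraries. In the fed libraries they summed to 845 to 926, so the starved libraries were the low ones. The epithelial keratin KRT8 stood at 1699, 1997 and 1397 normalized reads in the knockdown libraries, against 653, 837 and 694 in the starved libraries. Together 5 epithelial markers summed to 2055 to 2743 in the knockdown, 1229 to 1570 in starved and 1948 to 2350 in fed cells. The neurofilament genes known from this line, a list of 4, summed to 3502 to 4837 in the knockdown and 2236 to 2313 in starved cells. Their sums in fed cells were 3069 to 3338. Fibroblast markers summed to 469 to 499 in the knockdown, 277 to 336 in starved and 571 to 601 in fed cells. For 5 endothelial markers the sums were 16.8 to 129 in the knockdown, 6.61 to 20.0 in starved and 17.1 to 41.4 in fed cells. For 5 leukocyte markers they were 50.7 to 226, 36.4 to 90.1 and 16.8 to 37.5 in the same order of groups. The part of these shifts in the results was not tested. In bulk RNA, fewer cells of a kind and less RNA per cell cannot be told apart.

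The change between the groups was broad. Of 19966 genes, 11133 passed the filter on low values, and 5198 of them (46.7%) differed between knockdown and starved cells at a limma adjusted p under 0.05. Of these, 2516 genes (22.6% of those tested) were higher in the knockdown and 2682 (24.1%) lower. Large changes were more often rises: 668 genes (6.0%) were called higher by a fold of 2 or more and 331 (2.97%) lower by that fold, and a fold of 4 was passed by 96 genes upward and 19 downward. In 5678 genes (51.0%) the 3 knockdown values lay wholly on one side of the 3 starved values, so lack of overlap alone does not set a gene apart here. The median log2 fold change over all tested genes was -0.04, and the median standard error 0.13. When libraries were scaled by their totals instead, 2915 genes were called higher and 2105 lower, and on a TPM scale 2936 and 1998, so the balance of directions depends on the scaling. The libraries held 11775367 to 15231651 reads in genes, and mitochondrial genes took 3.52% to 5.56% of the values in the knockdown and 3.61% to 4.54% in starved cells, with the highest share in knockdown replicate 3.

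**Figure D1:**
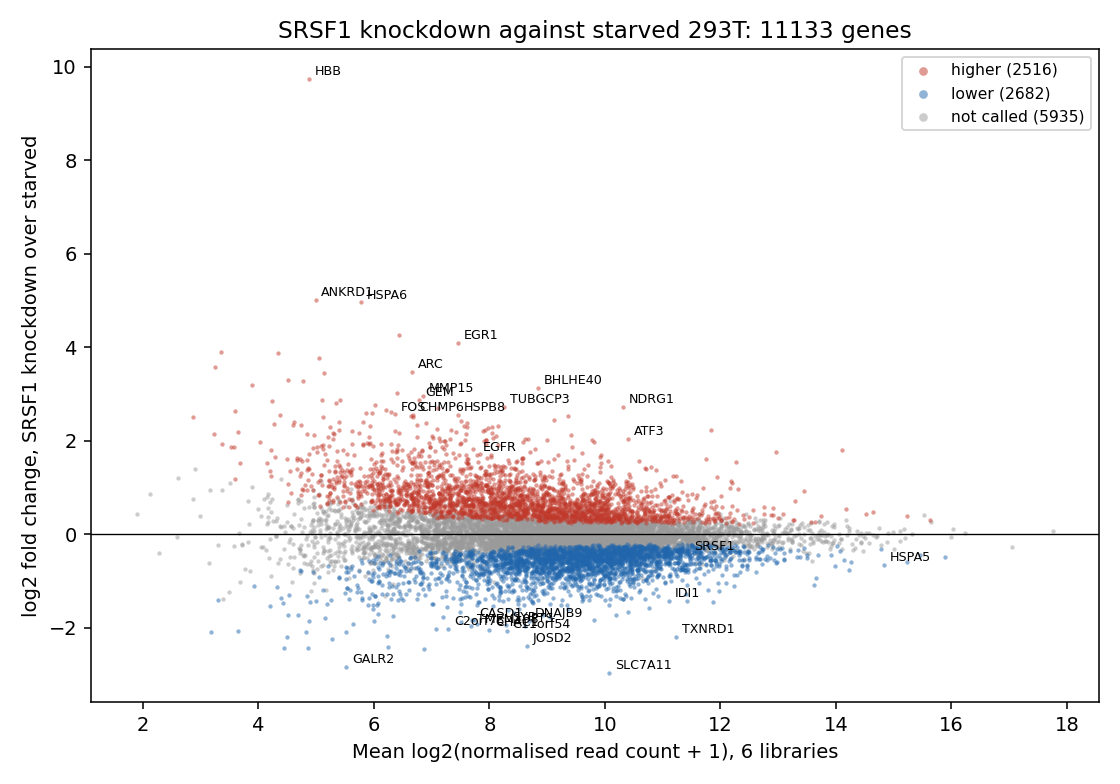
Each point is a tested gene, with the mean log2 of its normalized reads plus 1 over the 6 libraries on the horizontal axis and its log2 fold change, SRSF1 knockdown over starved, on the vertical axis; genes called higher are red, called lower blue and not called grey. Apart from HBB, which had no reads in starved cells, the rises reach 5.02 for ANKRD1 and the falls -2.97 for SLC7A11.

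The targeted transcript was lower, by a small amount. SRSF1 (chr17:58000919-58007346, minus strand) had 2390.1, 2455 and 2382 normalized reads in the knockdown libraries, against 3344, 3189 and 3205 in the starved libraries. The groups did not overlap, and the log2 fold change was -0.43 ± 0.07 with a limma adjusted p of 0.000797, that is 0.742 times the starved level. Fed cells had 2588, 2485 and 2472, so the knockdown values lay just under those of cells that had not been starved. Protein was not measured. Among the 12 SR genes tested, none was called higher and 6 were called lower, with a median of -0.34. SRSF6, another SR protein, stood at 1039, 909 and 1043 in the knockdown libraries, against 2582, 2210.5 and 2317 in the starved libraries, a log2 fold change of -1.25 ± 0.10. SRSF7, SRSF8, SRSF5 and SRSF10 were also lower, with log2 fold changes of -0.68, -0.73, -0.55 and -0.46, so that SRSF1 and SRSF10 had the smallest of the 6 falls. Of 13 SR protein kinases, TRA2 splicing factors and related regulators, 5 were called lower and 2 higher, with a median of -0.12. These shares, 38.5% and 15.4%, stand beside 24.1% lower and 22.6% higher of all tested genes. The largest falls were of the kinases SRPK3, at -1.27 ± 0.34, and CLK4, at -0.73 ± 0.17, while the kinases CLK3 and CLK2 rose by 0.60 and 0.38 on the log2 scale and SRPK1 at -0.12 was not called. Without starved replicate 1 or 3, 2 of the 13 were called lower, and without knockdown replicate 1 or 2, 3 were.

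Genes that growth factors switch on within minutes were far higher in the knockdown, although both groups were without serum. Of 28 tested immediate early genes, 22 were called higher and 1 lower, with a median log2 fold change of 1.05 against -0.04 over all tested genes. When single libraries were left out, 16 to 22 were called higher. EGR1, a zinc finger activator, had 659, 673 and 852 normalized reads in the knockdown libraries, against 38.1, 48.5 and 38.4 in the starved and 7.21, 37.5 and 34.6 in the fed libraries. The lowest knockdown value of EGR1 stood far above every other library, and its log2 fold change was 4.09 ± 0.46 (limma adjusted p = 4.81e-05). GEM, a small GTPase of the RGK family, was tighter, with 305, 292 and 291 in the knockdown libraries against 41.1, 39.7 and 38.4 in the starved libraries. FOS had 181, 202 and 216 in the knockdown libraries, against 40.1, 23.1 and 38.4 in the starved libraries.

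The AP-1 subunits, which pair as FOS and JUN proteins to bind DNA, differed in size of change. FOSL2 stood at 260.1, 291 and 268 in the knockdown libraries, against 52.1, 47.4 and 55.8 in the starved libraries, and rose by 2.38 ± 0.15 on the log2 scale. JUN, the most highly counted of them, had 15806, 16356 and 12297 in the knockdown libraries, against 4070.2, 4969 and 4119 in the starved libraries, a log2 fold change of 1.75 ± 0.12. None of these AP-1 genes overlapped between the groups, as was so for 51.0% of all tested genes. SRF itself, the factor that many of these genes share, was the member called lower, at -0.44 ± 0.10. ARC, an immediate early gene best known from neurons and also reported as a substrate of nonsense-mediated decay, had 365, 434 and 242 in the knockdown libraries against 27.0, 29.8 and 31.4 in the starved libraries, and did not overlap between the groups.

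The window from 250 bases before to 50 bases after the start of EGR1 is shown because EGR1 has the largest change of these genes and its window matches the CArG box, the motif of SRF. The sequence is from RefSeq on GRCh38.p14, chr5:138465229-138465528, plus strand, with the matches in capitals.
EGR1: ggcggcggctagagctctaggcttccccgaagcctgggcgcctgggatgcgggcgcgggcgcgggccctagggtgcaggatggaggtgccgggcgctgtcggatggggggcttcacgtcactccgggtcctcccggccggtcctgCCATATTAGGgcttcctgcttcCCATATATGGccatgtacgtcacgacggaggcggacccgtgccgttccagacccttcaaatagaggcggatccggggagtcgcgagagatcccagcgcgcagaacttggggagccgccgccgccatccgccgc
CArG boxes were searched on both strands, and 2 were found, starting 105 and 83 bases before the gene start. Of 20 immediate early genes with a window, 2 held a match, EGR1 and SRF, that is 10% of them, against 1.29% of 35116 windows of the same length. A match describes the letters only.

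**Figure D2:**
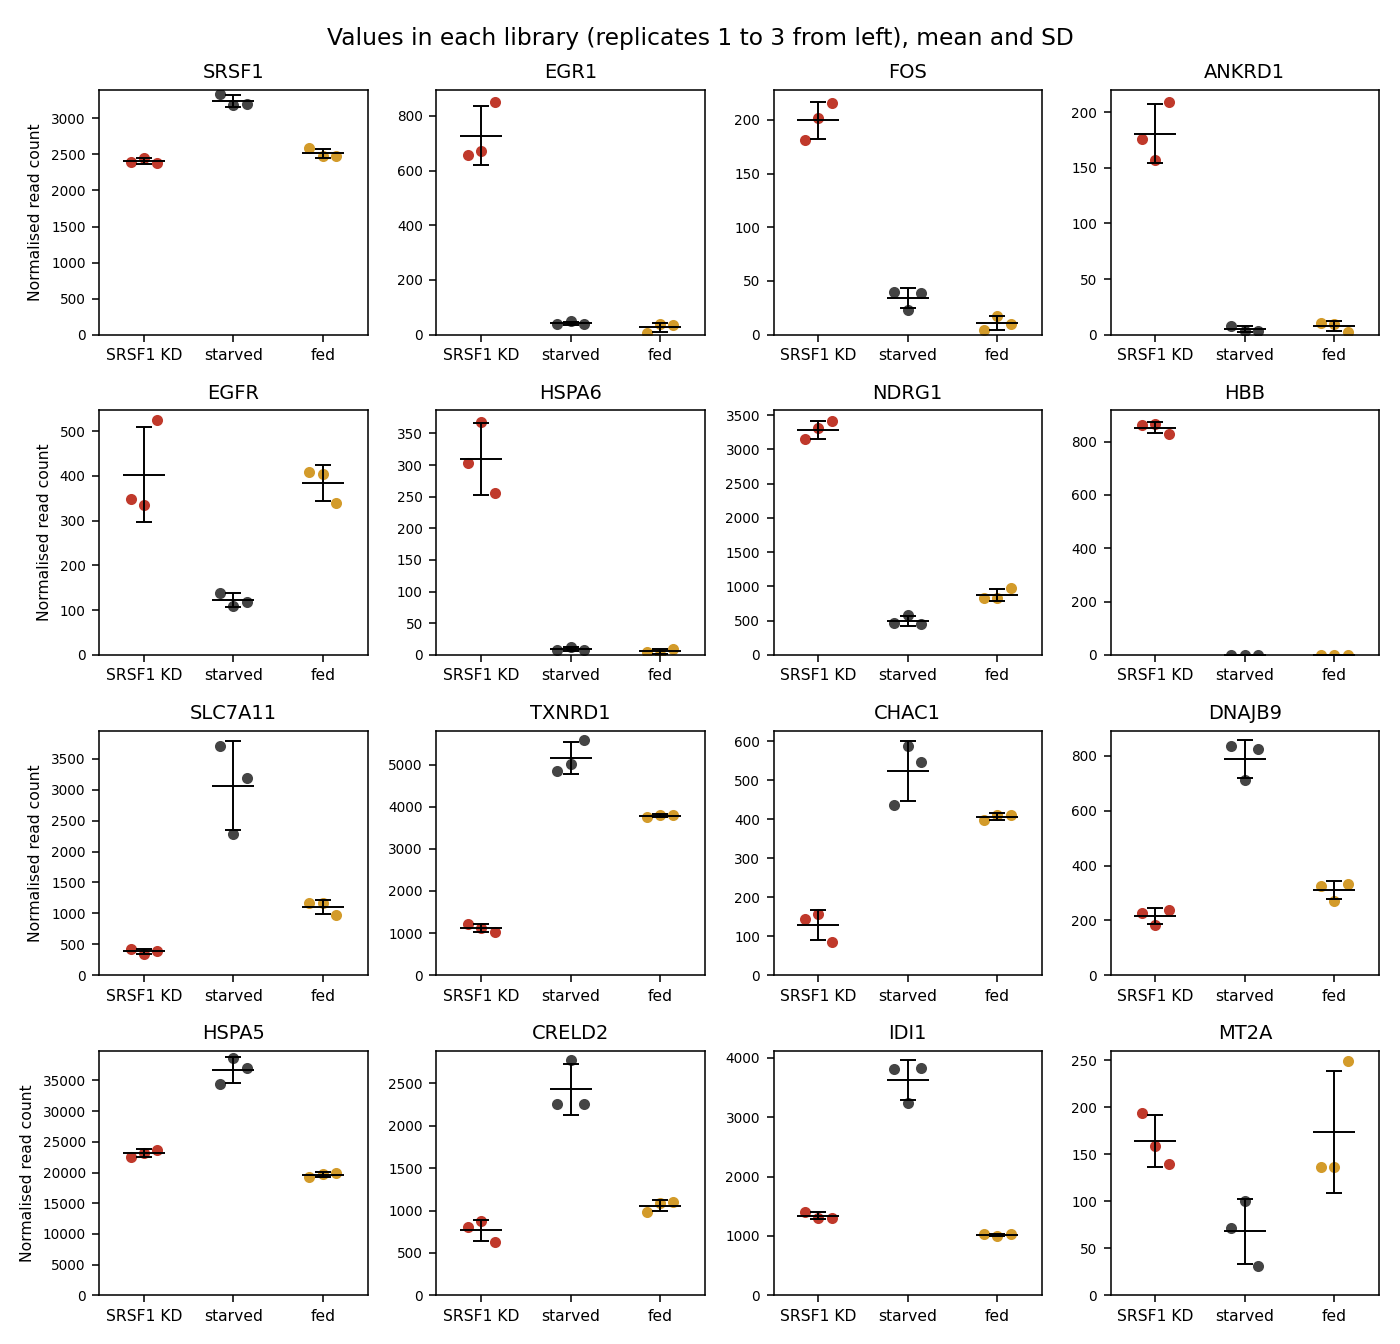
Each of the 16 panels shows a gene of the lists, with the normalized reads of every library on the vertical axis from 0, the groups from left to right as SRSF1 knockdown, starved and fed, and bars for the mean and SD. The knockdown points of EGR1, between 659 and 852, lie above all starved points, of which the highest is 48.5.

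Genes that report and restrain ERK activity rose along with them. Of 15 tested ERK feedback and output genes, 12 were called higher and 3 lower, with a median of 1.10. When single libraries were left out, 8 to 12 were called higher. ETV4 and ETV5 are ETS factors induced by ERK: ETV5 had 96.8, 120.3 and 129 normalized reads in the knockdown libraries, against 11.0, 8.82 and 9.30 in the starved libraries. SPRED2, which blocks activation of RAF by RAS, stood at 459, 490.2 and 632 in the knockdown libraries, against 107, 121 and 106 in the starved libraries, and its relative SPRED1 rose by 1.83 ± 0.16. The Sprouty gene SPRY2 had 274, 275 and 346 in the knockdown libraries, against 140.2, 165 and 129 in the starved libraries, without overlap. The members called lower were SPRED3 at -0.79, the adaptor gene SH2B3 at -0.50 and the receptor gene EPHA4 at -0.30. The call of EPHA4 was lost when any library but knockdown replicate 3 was left out, and 1 member was called lower when any one starved replicate was left out.

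The DUSP phosphatases remove phosphate from MAP kinases and differ in which kinase they prefer. Of 7 tested, 6 were called higher and 1 lower, with a median of 1.04. DUSP5, which acts on nuclear ERK, had 262, 260.1 and 269 in the knockdown libraries, against 60.1, 72.7 and 52.3 in the starved and 54.0, 55.8 and 57.6 in the fed libraries. DUSP10 and DUSP8, which prefer JNK and p38, rose by 1.70 ± 0.24 and 1.35 ± 0.15 on the log2 scale. DUSP1 stood at 752, 703 and 668 in the knockdown libraries, against 297, 378 and 359 in the starved libraries. DUSP9 overlapped between the groups and lost its call without knockdown replicate 1 or 2 or starved replicate 1 or 3, and DUSP7, the member called lower at -0.41, lost its call without knockdown replicate 1 or starved replicate 1 or 2.

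The cascade between receptor and ERK did not move as a block. Of 53 tested RAS and MAPK components, 14 were called higher and 14 lower, with a median of -0.04, and 8 were called higher without starved replicate 1. That is 26.4% in each direction, near the 22.6% higher and 24.1% lower of all tested genes. HRAS was lower, at -0.84 ± 0.18, with 387, 430.0 and 266 in the knockdown libraries against 547, 755 and 616 in the starved libraries. RPS6KA3, a ribosomal S6 kinase below ERK, changed by -0.81 ± 0.14. Receptors leaned upward: of 17 tested growth factor receptors, 9 were called higher and 1 lower, with a median of 0.39, and 2 were called lower without knockdown replicate 3. EGFR had 348, 334 and 526 in the knockdown libraries, against 139, 109 and 119 in the starved and 409.8, 404 and 339 in the fed libraries. FGFR1 had 1576, 1686 and 1724 in the knockdown libraries, against 533, 703 and 503 in the starved and 1183, 1319 and 1283 in the fed libraries. In both, the starved libraries were the low ones. DDR2, a collagen receptor, was the receptor called lower, at -0.71 ± 0.15.

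YAP and TEAD proteins switch on genes of growth and cell shape when the Hippo kinases are off. Of 22 tested factors and targets, 18 were called higher and none lower, with a median of 0.67, and 15 to 18 were called higher without single libraries. ANKRD1, a widely used target, had 176, 158 and 209.7 normalized reads in the knockdown libraries, against 8.01, 3.31 and 3.49 in the starved and 10.8, 9.62 and 2.66 in the fed libraries. Its log2 fold change of 5.02 ± 0.47 (limma adjusted p = 1.31e-05) starts from a few reads per starved library. AMOTL2, which holds YAP outside the nucleus, had 337, 373 and 472 in the knockdown libraries, against 149, 198 and 163 in the starved libraries. YAP1 and TEAD2, the activator and a DNA-binding partner, rose by 0.59 ± 0.09 and 1.05 ± 0.13, and so did the opposing kinases LATS1 and LATS2, by 0.79 ± 0.15 and 0.68 ± 0.17. WWTR1, the relative of YAP1 also called TAZ, was not called, at 0.11. Of the actin genes and targets of SRF with its MRTF partners, 12 of 31 were called higher and 3 lower, with a median of 0.19, and 7 were called higher without starved replicate 1, and 1 lower without starved replicate 1 or 3. The shares in the reported fit were 38.7% higher and 9.68% lower, beside 22.6% and 24.1% of all tested genes.

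The ANKRD1 window is shown because ANKRD1 has the largest change of this list. It is from RefSeq on GRCh38.p14, chr10:90921038-90921337, minus strand, and the capitals mark the TEAD motif CATTCC or its complement GGAATG.
ANKRD1: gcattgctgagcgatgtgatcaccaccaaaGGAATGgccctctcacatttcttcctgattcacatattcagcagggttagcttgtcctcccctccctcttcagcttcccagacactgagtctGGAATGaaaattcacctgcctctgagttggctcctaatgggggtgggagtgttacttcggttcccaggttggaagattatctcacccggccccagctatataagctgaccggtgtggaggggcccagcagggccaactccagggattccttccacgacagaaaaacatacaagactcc
The motif was searched on both strands and started 220 and 128 bases before the gene start. Of 16 members with a window, 6 held it, that is 37.5%, against 14.0% of all windows. All 6 were called higher, among them NUAK2, LATS2 and YAP1, beside 81.8% of all tested members of the list.

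Genes of low oxygen and sugar use were mostly called higher, at 73% of tested members beside 22.6% of all tested genes. The share was larger in the DUSP (85.7%), YAP and TEAD (81.8%), ERK feedback (80%) and immediate early (78.6%) lists. Of 37 tested, 27 were called higher and 3 lower, with a median of 0.53, and 22 to 30 were called higher without single libraries. BHLHE40, a repressor induced by hypoxia that also acts in the circadian clock, had 1235, 1318 and 1540.0 normalized reads in the knockdown libraries, against 167, 139.9 and 159 in the starved and 211, 207 and 231 in the fed libraries. Its log2 fold change was 3.12 ± 0.12, with a limma adjusted p of 8.88e-08. NDRG1, a gene induced by hypoxia and cell stress, had 3149, 3305 and 3409.5 in the knockdown libraries, against 461, 585 and 449.9 in the starved and 825, 831 and 979 in the fed libraries. BHLHE40 and NDRG1 were highest in the knockdown among the 3 groups. EGLN3, a prolyl hydroxylase that marks HIF subunits for decay, had 339, 353 and 318 in the knockdown libraries, against 114, 138 and 100 in the starved libraries. ADM, the vasodilator adrenomedullin, had 229.7, 220.3 and 191 in the knockdown libraries, against 59.1, 80.4 and 81.4 in the starved libraries, and KDM3A, a histone demethylase, rose by 1.10 ± 0.12. In each of these genes every knockdown value was above every starved value, and 51.0% of all tested genes had no overlap in either direction.

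The calls differed between steps of glycolysis. At the glucose carrier, SLC2A3 had 441, 415 and 494 in the knockdown libraries, against 76.1, 89.3 and 90.7 in the starved and 294, 226 and 238 in the fed libraries. At the first kinase, HK1 rose by 0.77 ± 0.11 and HK2 was lower, at -0.37 ± 0.08. PFKP, a phosphofructokinase, was not called at 0.12, whereas PFKFB3, which makes the activator of that step, rose by 0.98 ± 0.09. PGK1, phosphoglycerate kinase, had 31800.3, 32577 and 35016 in the knockdown libraries, against 8736, 10709.6 and 9153 in the starved and 8936, 8949.9 and 9491 in the fed libraries, so that only the knockdown stood apart among these 3 groups. PKM and LDHA, which end the pathway in pyruvate and lactate, rose by 0.47 ± 0.12 and 0.54 ± 0.09, and PDK1, which keeps pyruvate out of mitochondria, by 0.53 ± 0.11. VEGFA, the angiogenic growth factor, was lower at -0.26 ± 0.08, with a limma adjusted p of 0.0646 without starved replicate 1.

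The BHLHE40 window is shown as the member with the largest change that holds the core of the hypoxia response element, ACGTG. It is from RefSeq on GRCh38.p14, chr3:4979187-4979486, plus strand, and the capitals mark ACGTG or its complement CACGT, which overlap where they form CACGTG.
BHLHE40: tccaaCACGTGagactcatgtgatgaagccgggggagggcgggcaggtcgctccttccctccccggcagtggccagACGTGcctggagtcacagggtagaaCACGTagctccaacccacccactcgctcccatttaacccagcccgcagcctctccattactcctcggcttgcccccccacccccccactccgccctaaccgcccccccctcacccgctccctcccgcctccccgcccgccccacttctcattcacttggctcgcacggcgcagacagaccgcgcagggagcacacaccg
Matches on both strands started 245, 244, 174 and 149 bases before the gene start. Of 33 members with a window, 13 held the motif, that is 39.4%, against 21.4% of all windows. Of the 13, 11 were called higher and 1 lower, beside 73% of all tested members of the list called higher.

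**Figure D3:**
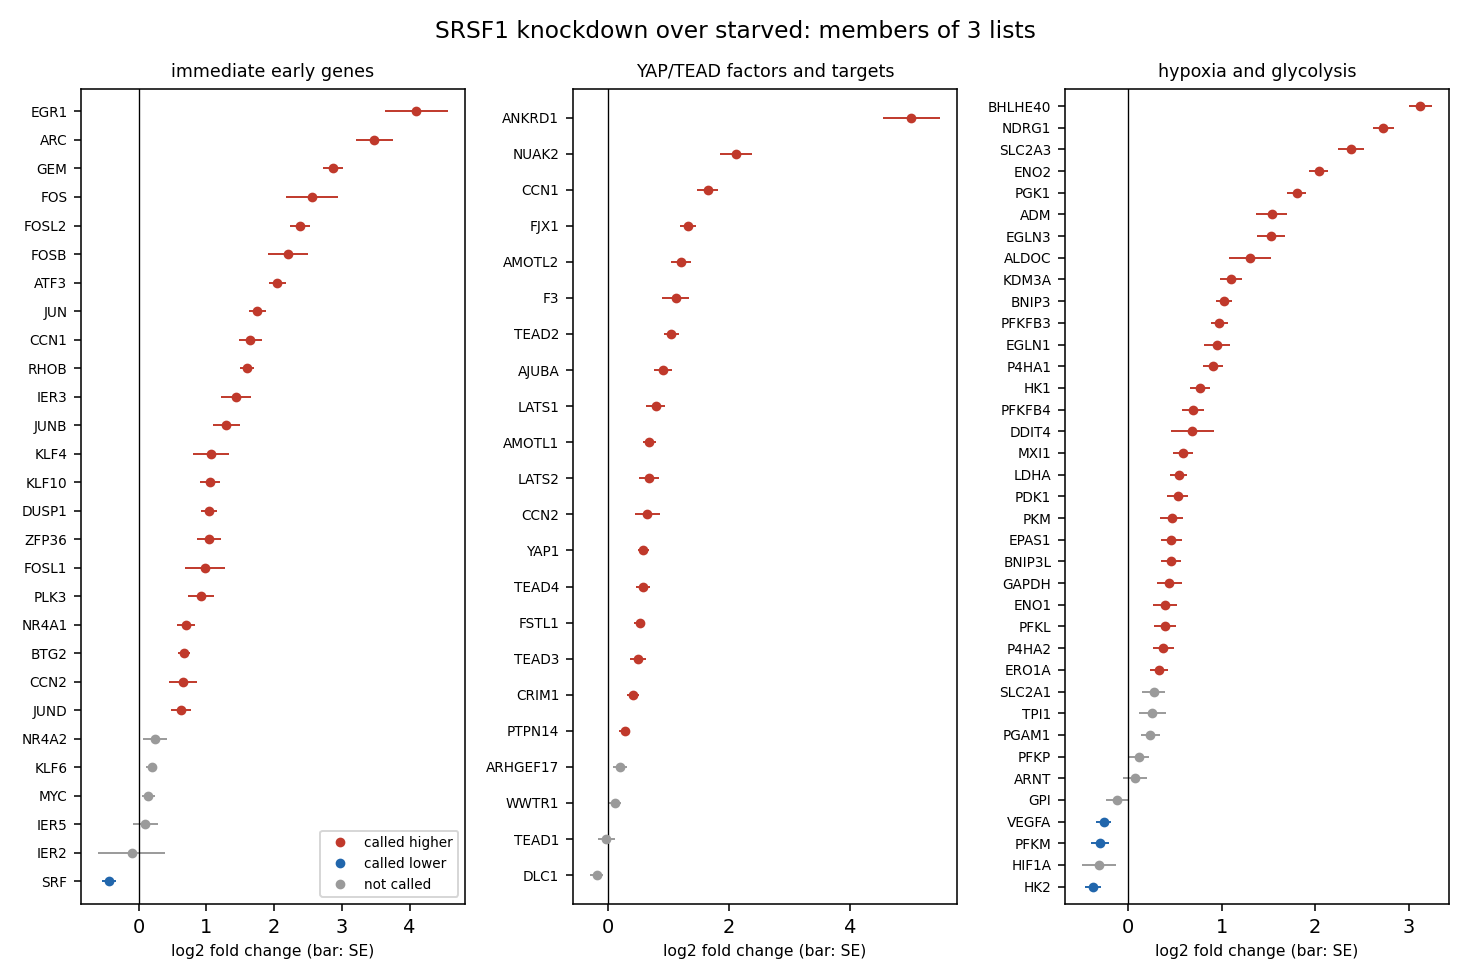
Each panel is a list whose tested members were mostly called higher, with the log2 fold change, SRSF1 knockdown over starved, on the horizontal axis and bars of 1 standard error. Members called higher are red, called lower blue and not called grey, and ANKRD1, at 5.02, and EGR1, at 4.09, stand furthest to the right.

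Transcripts of the response of the endoplasmic reticulum to unfolded proteins were lower in the knockdown than in starved cells. Of 24 tested genes, 18 were called lower and 1 higher, with a median of -0.61, and 15 to 20 were called lower without single libraries. HERPUD1, which serves degradation at the reticulum membrane, had 1627, 1761 and 1588 normalized reads in the knockdown libraries, against 4204, 4926 and 4386 in the starved and 1573, 1472 and 1656 in the fed libraries. DNAJC3, an inhibitor of the kinase PERK, had 1071, 962 and 995 in the knockdown libraries, against 3187, 2632 and 3218 in the starved libraries. HSP90B1, the reticulum's HSP90, had 9407, 7860.1 and 10833 in the knockdown libraries, against 19848, 15229 and 18418 in the starved libraries. In all 3 genes every knockdown value lay under every starved value, with log2 fold changes of -1.44 ± 0.09, -1.57 ± 0.10 and -0.93 ± 0.13. Of all tested genes, 51.0% had no overlap in either direction. HSPA5, the chaperone BiP, and the factor XBP1 changed by -0.67 ± 0.09 and -0.54 ± 0.09.

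Of the sensors that start the response, ATF6 was the member called higher, with 1158, 1183 and 1691 in the knockdown libraries against 718, 752 and 767 in the starved libraries, without overlap. The lectin chaperone CALR was not called, at -0.18. SDF2L1 had a single library far below the others: its knockdown values were 1833, 1911 and 521, against 2693, 3828 and 2839.9 in starved cells, the log2 fold change of -1.33 became -0.72 without knockdown replicate 3, and the limma adjusted p was 0.0522 without starved replicate 2.

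The CRELD2 window is shown because CRELD2, a protein of the reticulum lumen, is the member with the largest change that holds the stress element of this response, CCAAT followed 9 bases later by CCACG. It is from RefSeq on GRCh38.p14, chr22:49918384-49918683, plus strand, with the match in capitals.
CRELD2: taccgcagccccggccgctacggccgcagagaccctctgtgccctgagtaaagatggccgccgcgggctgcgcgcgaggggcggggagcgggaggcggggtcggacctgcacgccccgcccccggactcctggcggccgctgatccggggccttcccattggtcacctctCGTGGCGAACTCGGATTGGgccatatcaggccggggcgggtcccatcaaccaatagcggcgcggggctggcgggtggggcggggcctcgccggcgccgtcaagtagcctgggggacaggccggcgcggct
The element was searched on both strands and started 80 bases before the gene start. Of 22 members with a window, 6 held it, that is 27.3%, against 27 of 35116 windows, or 0.0769%. The 6 were CALR, CANX, CRELD2, HSP90B1, HSPA5 and XBP1, of which 4 were called lower and none higher. Among all tested members of the list, 75% were called lower.

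Genes of amino acid supply that the factor ATF4 drives were lower as well, with a group of stress genes going the other way. Of 35 tested, 22 were called lower and 5 higher, with a median of -0.55, and 20 to 23 were called lower without single libraries. SLC7A11 (chr4:138164097-138242349, minus strand), which exchanges cystine for glutamate, had 415, 345 and 395 normalized reads in the knockdown libraries, against 3716, 2289 and 3193 in the starved and 1162, 1167 and 973 in the fed libraries. Its log2 fold change of -2.97 ± 0.16 (limma adjusted p = 4.87e-07) was the largest fall among the genes named by the rule. The serine route was lower at PHGDH, PSAT1 and PSPH, by log2 fold changes of -0.55 ± 0.13, -1.10 ± 0.09 and -0.78 ± 0.10. ASNS, asparagine synthetase, had 58.5, 53.1 and 53.7 in the knockdown libraries, against 176, 139.9 and 130.2 in the starved libraries. CTH and CBS, which make cysteine from homocysteine, changed by -1.33 ± 0.09 and -1.06 ± 0.10, and the neutral amino acid carrier SLC1A4 by -1.40 ± 0.12.

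ATF4 mRNA at -0.14 was not called. The members called higher were ATF3, GDF15, PPP1R15A, ATF5 and DDIT4, of which DDIT4 lost its call without knockdown replicate 1 or 2 or starved replicate 1 or 3, and 3 members were called higher without knockdown replicate 1 or 2. PPP1R15A, which brings a phosphatase to the initiation factor eIF2 alpha, had 1663, 1802 and 1574 in the knockdown libraries, against 760.2, 824 and 678 in the starved libraries. Of the charging enzymes, 9 of 20 aminoacyl-tRNA synthetase genes were called lower and 4 higher, with 5 called lower without knockdown replicate 1. The shares in the reported fit were 45% lower and 20% higher, beside 24.1% and 22.6% of all tested genes. AARS1 rose by 1.09 ± 0.09 and MARS1 by 0.70 ± 0.10, while TARS1 changed by -0.75 ± 0.11.

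The CHAC1 and TXNRD1 windows are shown because each is the member with the largest change that holds the element searched for its list. CHAC1 breaks down glutathione, and its capitals mark TGATGNAA, the element of ATF4 with its partners, or the complement; TXNRD1, thioredoxin reductase, is a target of NRF2, and its capitals mark TGACNNNGC or the complement. Both are from RefSeq on GRCh38.p14, plus strand, at chr15:40953221-40953520 and chr12:104215529-104215828.
CHAC1: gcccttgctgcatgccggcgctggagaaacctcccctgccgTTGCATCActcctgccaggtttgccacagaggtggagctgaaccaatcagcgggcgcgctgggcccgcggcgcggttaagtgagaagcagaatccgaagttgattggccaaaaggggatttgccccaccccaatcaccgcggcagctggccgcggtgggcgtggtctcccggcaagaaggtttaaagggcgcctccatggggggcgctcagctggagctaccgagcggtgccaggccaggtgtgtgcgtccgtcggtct
TXNRD1: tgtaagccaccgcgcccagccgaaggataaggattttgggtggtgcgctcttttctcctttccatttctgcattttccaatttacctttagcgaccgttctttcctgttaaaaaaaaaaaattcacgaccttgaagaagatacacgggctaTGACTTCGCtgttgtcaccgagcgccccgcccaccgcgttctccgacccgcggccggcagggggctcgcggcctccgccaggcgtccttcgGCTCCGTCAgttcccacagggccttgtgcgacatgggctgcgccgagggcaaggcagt
Both strands were searched. The CHAC1 match started 209 bases before the gene start and the TXNRD1 matches 99 and 8 bases before. TGATGNAA stood in 5 of 30 windows of its list, or 16.7%, against 3.62% of all windows, and TGACNNNGC in 5 of 22, or 22.7%, against 13.4%. TXNRD1 had 1208, 1117 and 1036 in the knockdown libraries, against 4852, 5023 and 5583 in the starved and 3746, 3802 and 3806 in the fed libraries, a log2 fold change of -2.20 ± 0.09. CHAC1 had 144, 156 and 85.7 in the knockdown libraries, against 437, 587 and 548 in the starved libraries. The mixed list of cystine, glutathione and NRF2 target genes did not follow as a whole: of 32 tested, 8 were called lower and 5 higher, with a median of -0.06. The shares were 25% lower and 15.6% higher, beside 24.1% and 22.6% of all tested genes. HMOX1 at 0.65 and NQO1 at 0.66 were among the members called higher.

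Transcripts of cholesterol synthesis were lower in the knockdown than in starved cells along most of the pathway. Of 30 tested genes of sterol synthesis and uptake, 21 were called lower and none higher, with a median of -0.65, and 19 to 22 were called lower without single libraries. At the entry, HMGCS1 changed by -0.91 ± 0.09. In the mevalonate steps MVK and MVD changed by -0.84 ± 0.14 and -1.21 ± 0.21. IDI1, the isomerase of the next step, had 1407, 1309.6 and 1306 normalized reads in the knockdown libraries, against 3814, 3234 and 3835 in the starved and 1030.4, 999 and 1033 in the fed libraries. From squalene onward, FDFT1, SQLE and LSS changed by -0.48 ± 0.09, -0.93 ± 0.08 and -0.92 ± 0.12. MSMO1, NSDHL and DHCR7, which trim the ring, changed by -1.03 ± 0.10, -1.31 ± 0.12 and -1.08 ± 0.14.

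STARD4, a carrier of sterols between membranes, had 435, 353 and 364 in the knockdown libraries, against 1316, 826 and 1233 in the starved libraries. In IDI1 and STARD4 every starved value was above every knockdown value, beside 51.0% of all tested genes without overlap in either direction. Of the regulators, the factor SREBF2 at -0.17 and its escort SCAP at 0.09 were not called. The sterol element TCACNCCAC, searched on both strands, stood in 1 of 24 windows of the list, or 4.17%, against 1.13% of all windows, and that window was SREBF2's, so no called member held it. MVD was low in a single library, with 647, 699 and 359 in the knockdown and 1189.8, 1417 and 1199.7 in starved cells. The desaturase SCD, of fatty acid synthesis, changed by -0.68 ± 0.09, while SCD5 rose by 0.86 ± 0.11.

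**Figure D4:**
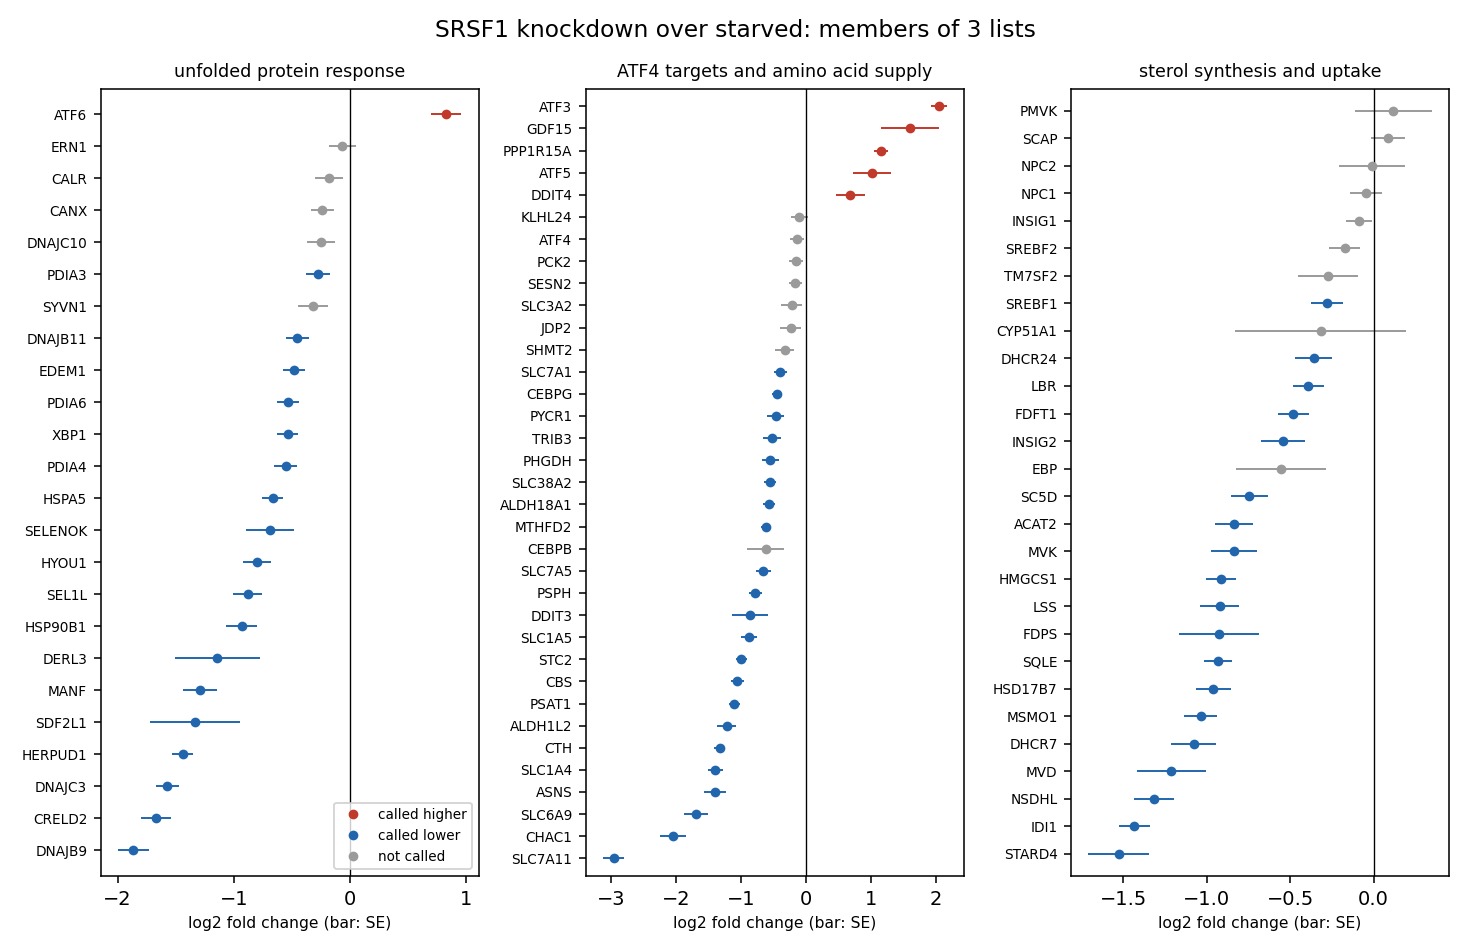
Each panel is a list whose tested members were mostly called lower, drawn for the members reported here, with the log2 fold change, SRSF1 knockdown over starved, on the horizontal axis and bars of 1 standard error. Members called lower are blue, called higher red and not called grey; SLC7A11 at -2.97 is the lowest, and ATF3 at 2.05 the highest, of the ATF4 list.

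Ribosome biogenesis genes were lower, most by less than a fold of 2. Of 60 tested genes, 35 were called lower and 3 higher, with a median of -0.36, and 28 to 37 were called lower without single libraries, with 5 called higher without starved replicate 2. UTP20 and UTP15, parts of the small subunit processome, changed by -0.99 ± 0.14 and -0.93 ± 0.12. RPF2, which helps place the 5S particle, had 995, 954 and 1059.7 normalized reads in the knockdown libraries, against 2093, 1868 and 2176 in the starved libraries. Of RNA polymerase I, the catalytic genes POLR1A and POLR1B changed by -0.45 ± 0.09 and -0.44 ± 0.09. NPM1, an abundant nucleolar protein, was not called, at -0.17. WDR75, a further processome gene, rose: it had 1249, 1118 and 1307 in the knockdown libraries, against 445, 363 and 417 in the starved and 1573, 1434 and 1450.4 in the fed libraries. UBTF, a factor of RNA polymerase I, rose by 0.82 ± 0.11, and NOB1 by 0.51 ± 0.12.

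Few genes of the ribosome itself were called. Of 83 tested cytosolic ribosomal protein genes, 6 were called lower and 2 higher, with a median of -0.08, and 3 to 12 were called lower when single libraries were left out, 3 of them without starved replicate 1 and 12 without knockdown replicate 2. The shares in the reported fit were 7.23% lower and 2.41% higher, beside 24.1% and 22.6% of all tested genes. The count called higher was 5 without starved replicate 2 and 1 without any other library. Many of these genes have processed pseudogenes that can share reads, so single members are uncertain. Among 72 genes of the mitochondrial ribosome, 16 were called higher and 12 lower, with 6 called lower without starved replicate 1 and 7 without starved replicate 2. These shares, 22.2% and 16.7%, stand beside 22.6% and 24.1% of all tested genes. MRPL58, a release factor in the mitochondrial ribosome, had 794, 879 and 648 in the knockdown libraries, against 240.4, 312 and 249 in the starved and 612, 564 and 683 in the fed libraries. MRPS15 moved the other way, at -0.94 ± 0.12. Of 47 translation factors, 14 were called lower and 3 higher, with 5 higher without knockdown replicate 2 or 3 and 2 higher without starved replicate 1 or 3. The shares were 29.8% lower, near the 24.1% of all tested genes, and 6.38% higher, under their 22.6%. The helicase gene EIF4A2 had 3176, 3165 and 3129.6 in the knockdown libraries, against 1601, 1218 and 1457 in the starved libraries, and the start site factor gene EIF1AX changed by -1.04 ± 0.10.

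Among heat shock genes the directions split by member. Of 25 tested, 10 were called lower and 6 higher, with a median of -0.18, and 7 to 10 were called lower when single libraries were left out. That is 40% lower and 24% higher, beside 24.1% and 22.6% of all tested genes. HSPA6, an HSP70 that is nearly silent without stress, had 304, 368 and 255 in the knockdown libraries, against 7.01, 12.1 and 8.14 in the starved and 4.50, 1.92 and 9.75 in the fed libraries. HSPB8, a small heat shock protein of selective autophagy, had 412, 411 and 451 in the knockdown libraries, against 68.1, 100.3 and 54.6 in the starved libraries. The main cytosolic HSP70 genes were lower: HSPA8 changed by -0.60 ± 0.10, and HSPA1A and HSPA1B, nearly identical copies whose reads cannot be told apart with certainty, by -0.88 ± 0.14 and -0.78 ± 0.10. DNAJB1, their co-chaperone, had 4219, 4818 and 3767 in the knockdown libraries, against 5611, 6939.9 and 6271 in the starved and 1886, 2012 and 2149.9 in the fed libraries.
The HSPA6 window, from RefSeq on GRCh38.p14 at chr1:161524290-161524589, plus strand, is shown because HSPA6 has the largest change of the list. Its capitals mark the heat shock element, GAA, TTC and GAA with 2 bases between, searched on both strands and starting 74 bases before the gene start.
HSPA6: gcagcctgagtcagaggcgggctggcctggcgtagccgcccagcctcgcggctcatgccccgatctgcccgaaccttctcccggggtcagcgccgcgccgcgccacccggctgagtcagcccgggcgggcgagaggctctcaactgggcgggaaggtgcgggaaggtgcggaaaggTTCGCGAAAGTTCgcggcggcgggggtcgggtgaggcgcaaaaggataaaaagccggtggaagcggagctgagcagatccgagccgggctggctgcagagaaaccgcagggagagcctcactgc
Of 23 members with a window, 5 held it, that is 21.7%, against 0.490% of all windows. The 5 split by direction, with HSPA6 and SERPINH1 called higher and CHORDC1, DNAJA1 and HSPA8 called lower.

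Nonsense-mediated decay destroys mRNAs with early stop codons, and SRSF1 can enhance it. Of 22 tested factors, 10 were called lower and 4 higher, with a median of -0.26. These shares, 45.5% and 18.2%, stand beside 24.1% lower and 22.6% higher of all tested genes. When single libraries were left out 7 to 9 were called lower, and on a TPM scale 6. UPF2, which bridges the helicase UPF1 to the exon junction complex, had 813, 578 and 955 normalized reads in the knockdown libraries, against 2133, 1715 and 2104 in the starved libraries, a log2 fold change of -1.37 ± 0.17. UPF3A and UPF3B changed by -0.82 ± 0.11 and -0.76 ± 0.14, and UPF1 at 0.06 was not called. NBAS and SMG8 rose by 1.24 ± 0.12 and 1.09 ± 0.09. Reported substrates of the pathway split: of 19, 7 were called higher (36.8%) and 8 lower (42.1%), with a median of -0.14. Among them GADD45B, a stress gene, had 623, 621 and 559.8 in the knockdown libraries, against 191, 219 and 205 in the starved libraries, while the substrates UPF2 and UPF3B were lower and ATF4 was not called.

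The cell cycle lists did not move one way. Of 28 genes of the G1 phase, 8 were called higher and 3 lower, that is 28.6% and 10.7%. Over all tested genes the shares were 22.6% and 24.1%, over replication genes 11.1% and 31.1%, and over mitosis genes 18% and 10.3%. CDKN1A, the inhibitor p21, had 1236, 1304 and 942 in the knockdown libraries, against 419, 523 and 492 in the starved and 445, 443 and 464 in the fed libraries. RBL1, the pocket protein p107, had 632, 513 and 694 in the knockdown libraries, against 202, 175 and 244 in the starved and 627, 657 and 567 in the fed libraries. CDKN2D, the inhibitor p19, had 168, 214 and 104 in the knockdown libraries, against 455, 509 and 401 in the starved libraries. Of 45 replication genes, 14 were called lower and 5 higher, with 8 called lower without starved replicate 3 and 2 or 3 called higher without knockdown replicate 1 or 2 or starved replicate 1 or 3. Of 39 mitosis genes, 7 were called higher and 4 lower, with 4 higher without knockdown replicate 2 or starved replicate 1 or 3. The number of mitosis genes called lower was 2 without knockdown replicate 1 or starved replicate 1, and 7 without knockdown replicate 3. Targets of p53, which large T antigen binds in this line, split as 9 higher and 8 lower of 30. These shares, 30% and 26.7%, lay near the 22.6% and 24.1% of all tested genes. BAX, a pore-forming death protein, had 1259, 1339 and 690.0 in the knockdown libraries, with the lowest value in replicate 3, against 2153, 2574 and 1941 in the starved libraries, and FAS, a death receptor, changed by -1.30 ± 0.19.

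Several of the largest rises were of genes that were low in starved cells and not in fed ones. TUBGCP3, part of the ring that seeds microtubules, had 746, 752 and 845 normalized reads in the knockdown libraries, against 144, 113 and 100 in the starved and 729.6, 817 and 671 in the fed libraries. CHMP6, of the ESCRT machinery that buds vesicles inward, had 247, 264 and 229 in the knockdown libraries, against 34.1, 52.9 and 39.5 in the starved and 255, 261 and 285 in the fed libraries. POFUT1, which adds fucose to Notch receptors, had 1545, 1567 and 1608 in the knockdown libraries, against 260.4, 295 and 258 in the starved and 1630.2, 1606 and 1688 in the fed libraries. In each, every knockdown value and every fed value was above every starved value. EFNB3, an ephrin ligand, had 209, 204 and 149.8 in the knockdown libraries, against 33.1, 32.0 and 22.1 in the starved and 222, 221 and 263 in the fed libraries. The comparison of starved with fed cells uses the same starved libraries, so its values are not independent of those given here.

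HBB was apart from every other gene. The beta-globin gene (chr11:5225464-5229395, minus strand) held 765, 980 and 801 reads in the knockdown libraries and 0 in each starved library, at least 783-fold higher when 3 reads over the starved group are taken as the floor. It made up nearly all of the 8 erythroid markers, which summed to 837 to 880 normalized reads in the knockdown and 3.49 to 8.82 in starved cells, with GYPB at 0 in both. HBA1 and HBA2 did not pass the filter on low values. That filter asks for 3 libraries, so HBB was no longer tested when a knockdown library was left out. The source of the HBB reads was not tested.

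**Figure D5:**
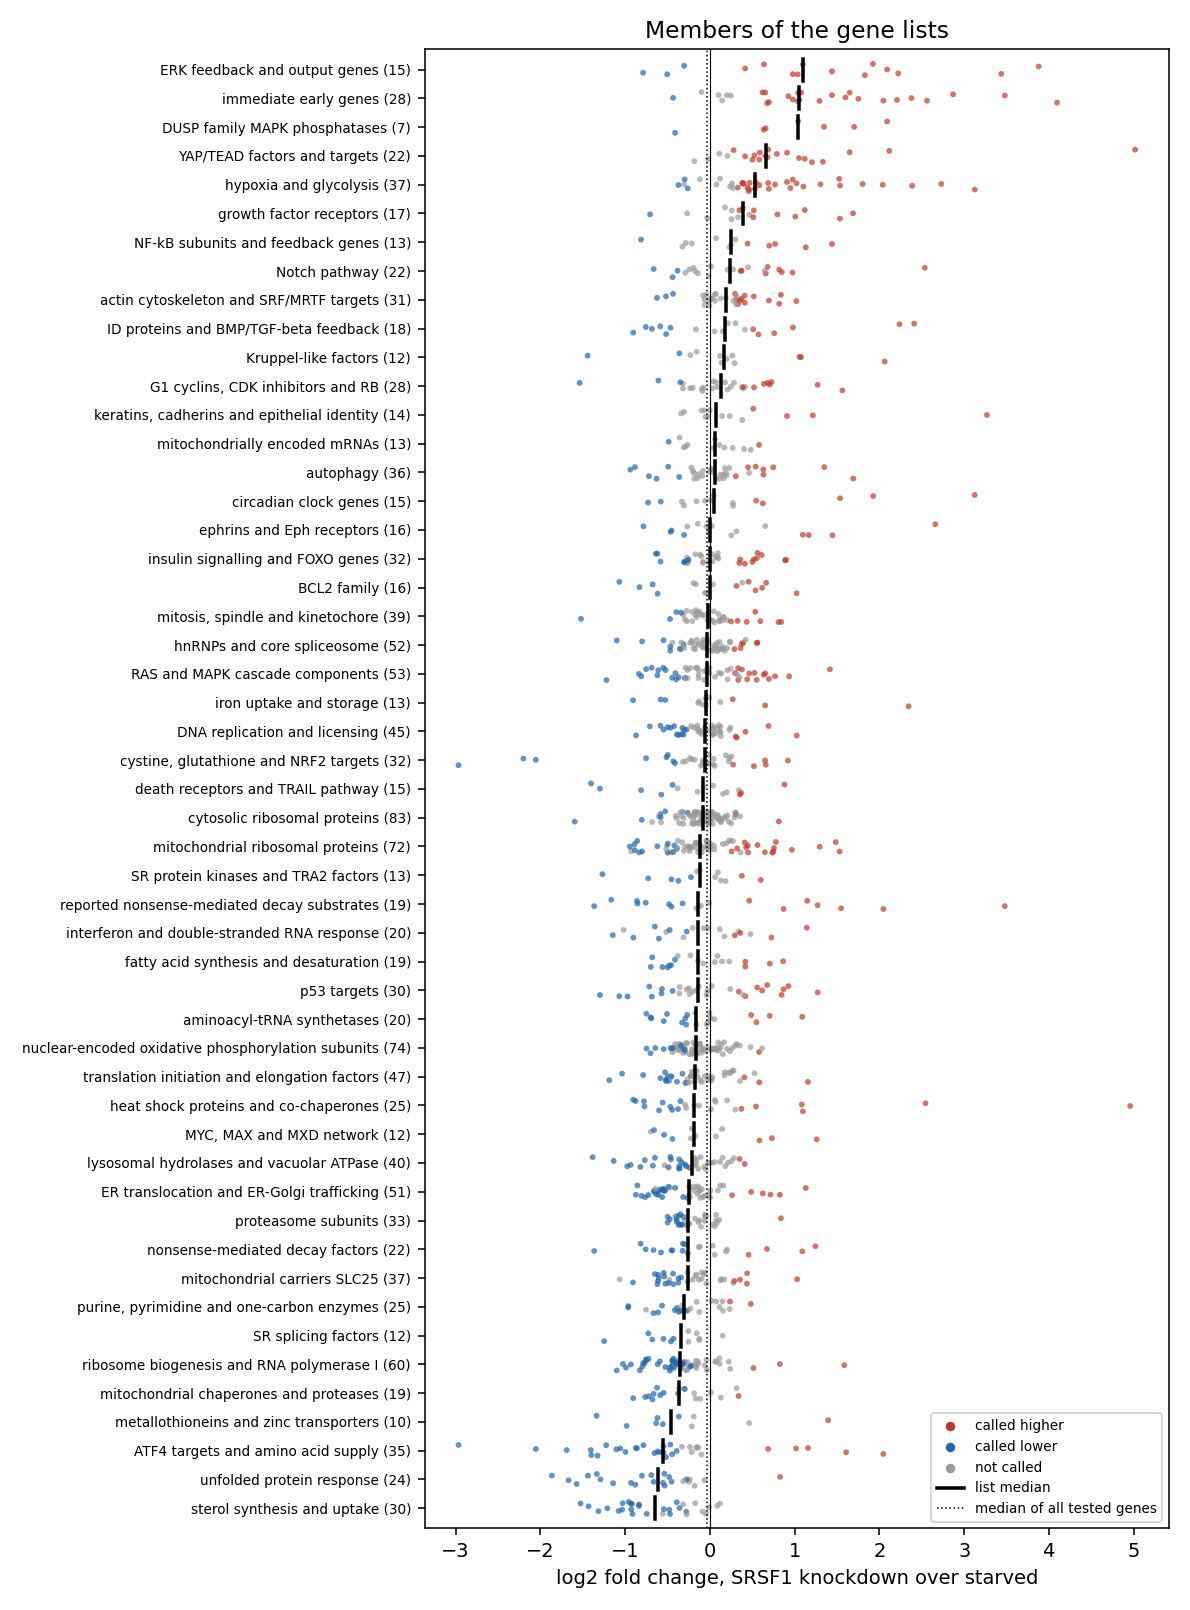
Each row is a list of genes, with the number of its tested members in brackets, a point for the log2 fold change of each member, SRSF1 knockdown over starved, and a bar for the list median; members called higher are red, called lower blue and not called grey. The globin list, with 2 tested members and a median of 4.73, is not drawn. The medians of the drawn lists run from 1.10 for the ERK feedback and output list to -0.65 for the sterol list. The median over all tested genes was -0.04.

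The knockdown libraries differed among themselves in some genes. Replicate 3 was the low library in several named genes and the high one in others. JOSD2, a deubiquitinase gene among the largest falls, had 275, 246 and 79.5 in the knockdown libraries, against 870.3, 1021 and 882 in the starved libraries. In contrast, replicate 3 was the highest knockdown library for EGR1, at 852 against 659 and 673, and for BHLHE40, at 1540 against 1235 and 1318. The same library carried the highest mitochondrial share. Over the 11133 tested genes, the log2 levels of knockdown replicate 3 correlated with those of the other knockdown libraries at 0.974 and 0.967, and replicates 1 and 2 with each other at 0.991. Levels of the knockdown libraries correlated with those of the starved libraries at 0.925 to 0.949 and with those of the fed libraries at 0.953 to 0.975. These are correlations over genes, whose levels differ widely in any library, and are given as a description. Across tested genes the rank correlation of log2 fold change with gene length was -0.022, given as a description, since genes are not independent replicates.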

How the data were processed

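RNA of 293T cells was sequenced in 9 libraries used here, 3 each of starved SRSF1 knockdown, starved and fed cells, grouped by the labels. The authors deposited a table named as FPKM, but its values are a signal on another scale: every one (100%) was a whole multiple of a step of its library, within a relative tolerance of 1e-08 and independent of gene length, so the deposited values are reads divided by a size factor. The design had assumed FPKM. The test was therefore limma 3.58.1 (R 4.3.3, with trend) on log2(value + 1), with 3 group means over 9 libraries and Benjamini-Hochberg adjustment at 0.05 over 11133 genes that reached 1 FPKM, computed from the reads, library totals and gene lengths, in at least 3 libraries. Fold changes on this scale understate the change of low genes. The libraries held 11775367 to 15231651 reads. Because whole reads are needed, edgeR 4.0.16 was run on 8 libraries, without starved replicate 1, and again on all 9. The step of that replicate, 1.0015, lay close to 1, but its values were whole multiples of the step as well. No column of another series was present or used, and the knockdowns of SRPK1 and UPF1 were left out.

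The submitters' processing notes name the build mm10, a mouse genome, while the gene IDs are human. Of 19849 IDs found in GENCODE release 29, 19830 stood at an overlapping GRCh38 position, and coordinates are the table's own. Aligner, counter and strand setting are not given in the sources used here, so reads of overlapping genes, antisense pairs and near-identical copies may be split wrongly. Promoter windows, 250 bases before to 50 after a gene start, are from RefSeq. A single window was taken for each list member, while the share of all windows counts every window, also where a gene has several.

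The groups compared, the 52 gene lists and the marker lists were chosen with earlier results of these data known. The rule for named genes took SRSF1, the 12 largest rises and falls without overlap at a mean of 5 FPKM or more in the higher group, up to 5 called members with the largest change in each list, members against the direction of their list, and printed promoters. Some list members are counted in their lists but not reported here by name. Other list members were named for their role after their values were seen. Replicate numbers were not taken to pair libraries in the reported fit. The correlation of deviations was 0.072, 0.537 and 0.297 for numbers 1, 2 and 3, so pairing was not excluded. A fit with the number as a block is given below. The test was tried on simulated data in 5 runs, each with 200 of 11133 genes changed, far fewer than the 5198 called here. It recovered 2.8% of changes at a fold of 1.25, 34.4% at 1.5, 91.6% at 2 and 100% at 4. Of its calls, 4.89% were false. Small changes among genes not called may therefore have been missed. Tables and plots used Python 3.11.15, numpy 2.4.6, pandas 2.3.3 and matplotlib 3.10.9.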

Additional observations from a re-analysis of the deposited data

How the results depend on the processing

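The direction of SRSF1 and its call held under every alternative run, with log2 fold changes of -0.33 to -0.44 and limma or edgeR adjusted p of at most 0.011, and without single replicates it was -0.41 to -0.44. The total of called genes was 4070 to 5562 without single replicates, 4083 with edgeR's quasi-likelihood test on 8 libraries, 5178 with it on 9, and 3430, of which 1426 were higher, with a filter at 5 FPKM, which tests fewer genes. Changes of a fold of 2 or more numbered 1179 higher and 535 lower with no filter, 273 and 187 with 5 FPKM, and 329 and 124 on FPKM with a pseudocount of 1 FPKM, which shrinks low genes. With the fed libraries left out of the fit, 4154 genes were called (2039 higher, 2115 lower), and 79.9% of the calls recurred. In that fit 5 aminoacyl-tRNA synthetase genes were called lower and 2 replication genes higher. Over all alternatives 65.6% to 99.9% of the 5198 genes were called again in the same direction and 0 in the opposite one. Scaling by library total gave 2915 higher and 2105 lower, FPKM 2880 and 2077, TPM 2936 and 1998, and quantile normalization 2515 and 2505. With the replicate number as a block, 5260 genes were called (2521 higher, 2739 lower) and 97.4% of the calls recurred; deviations of libraries with the same number correlated at 0.072, 0.537 and 0.297, and each knockdown library correlated best with its own number, as a hint only. Of 6094 pairs of a named gene and an alternative, 5922 gave the same call, 159 lost it, 2 gained one and 11 reversed the sign of a gene that was not called; for these the cause was not tested. The reversed values of TEAD1 were 0.043 with library totals, 0.0399 with FPKM, 0.0322 with TPM, 0.0832 with quantile normalization, 0.0535 with edgeR on 8 libraries and 0.0132 with it on 9. Without single replicates TEAD1 was -0.1762 to 0.0914 and CASP9 -0.2305 to 0.0119, the last without starved replicate 2. The medians of the mixed cystine, glutathione and NRF2 list and of the MAPK, replication, mitosis, hnRNP, BCL2 and iron lists changed sign between scalings. Among lists described above, other scalings moved the number called lower by over 1.5 times for nonsense-mediated decay factors (6 to 10), SR protein kinases (2 to 5), aminoacyl-tRNA synthetases (5 to 9), replication (8 to 14), mitosis (2 to 4), the mitochondrial ribosome (7 to 12), actin genes (1 to 3), hypoxia genes (1 to 3), DUSP genes (0 to 1), Kruppel-like factors (1 to 2) and lysosomal genes (12 to 19). They did so for the number called higher among SR protein kinases (2 to 4), ribosomal proteins (2 to 5), ribosome biogenesis (3 to 5), translation factors (3 to 8), Kruppel-like factors (3 to 5) and lysosomal genes (2 to 5). Chosen after seeing the data were library totals, FPKM with that pseudocount and edgeR on all 9 libraries. The method behind the size factors of the deposited values was not checked, and median ratio scaling was not run apart. Genes near the filter rest on few reads, where a difference was hard to detect at this depth.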

Other observations

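GALR2, a galanin receptor and among the 12 largest falls, had 13.5, 16.8 and 18.6 normalized reads in the knockdown libraries, against 115, 129 and 122 in the starved and 7.21, 6.73 and 6.21 in the fed libraries. Further genes outside the lists were chosen after their values were seen. CHGA, the granule protein chromogranin A, had 12.4, 10.6 and 11.4 in the knockdown libraries, against 69.1, 57.3 and 73.2 in the starved and 11.7, 8.66 and 8.87 in the fed libraries. AP3B2, a subunit of a neuronal vesicle adaptor, had 47.3, 45.1 and 54.7 in the knockdown libraries, against 257, 272 and 294 in the starved libraries. In GALR2, CHGA and AP3B2 every starved value was above every knockdown value, beside 51.0% of all tested genes without overlap in either direction. BSN, SYT11 and SCAMP5 changed by -1.61 ± 0.13, -2.04 ± 0.19 and -1.63 ± 0.12 on the log2 scale (limma adjusted p 4.49e-06, 1.24e-05 and 3.76e-06). No theme was tested for them.

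Of 7 genes whose splicing SRSF1 is known to affect, also picked with results in view, 2 were called higher, 2 lower and 3 not called at the gene level, beside 46.7% of all tested genes called. BIN1, a membrane-bending tumour suppressor, had 701, 788 and 534 in the knockdown libraries, against 274, 408 and 342 in the starved libraries, a log2 fold change of 0.98 ± 0.17. MKNK2, a kinase of the cap-binding factor eIF4E, was higher at 0.33 ± 0.11, a call lost without knockdown replicate 1 or 2 or starved replicate 1 or 3. The cell death regulators BCL2L11 and BCL2L1 changed by -0.68 ± 0.10 and -0.62 ± 0.16. CASP9 at -0.15, RPS6KB1 at -0.27 and TEAD1 at -0.02 were not called, though RPS6KB1 was called lower without knockdown replicate 3 or starved replicate 2. Which isoforms these reads came from could not be read.

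Further lists held genes that changed in different directions. NR1D1, a clock repressor, had 108, 116 and 102 in the knockdown libraries, against 27.0, 26.4 and 30.2 in the starved libraries, and CLOCK changed by -0.73 ± 0.16. KLF11 had 294, 281 and 278 in the knockdown libraries, against 69.1, 76.0 and 58.1 in the starved and 268, 292 and 272 in the fed libraries, while KLF15, a factor induced in fasting tissue, had 265, 281 and 230.3 in the knockdown libraries, against 626, 733 and 757 in the starved and 223, 194 and 238 in the fed libraries. LAMP1, a membrane protein of lysosomes, had 996, 985 and 1086 in the knockdown libraries, against 2446, 2971 and 2609.7 in the starved libraries, in a list of which 19 of 40 tested members were called lower and 2 higher. When single libraries were left out, 14 to 18 of that list were called lower and 1 to 3 higher, with 1 higher without knockdown replicate 2 or 3 or starved replicate 1, and other scalings gave 12 to 19 lower and 2 to 5 higher. SLC40A1, the iron exporter ferroportin, rose by 2.34 ± 0.35, and the zinc carriers SLC30A7 and SLC39A10 changed by -1.34 ± 0.13 and -0.98 ± 0.13.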
